A study of Mus musculus with 9 samples.

Results

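Open chromatin was compared between 2 sorted populations of the mouse cochlear duct at embryonic day 16 (E16): cells with the highest Sox2-EGFP signal (Sox2-EGFPhigh+) and cells without EGFP (Sox2-EGFP-). The comparison rests on 4 ATAC-seq peak lists of the 9 in the series, 2 samples of each population, chosen by their titles. ATAC-seq inserts sequencing adapters into accessible DNA with a transposase, so that a peak marks chromatin that was open in some of the cells. All 4 samples came from B6;129S-Sox2tm2Hoch/J embryos, which carry EGFP knocked into the coding region of Sox2, so both populations held the same allele. Ducts were treated with collagenase and dispase, freed of mesenchyme and cochlear nerve, dissociated with papain and sorted on the top and bottom peaks of the EGFP histogram, with EGFP-low cells left out. Each Sox2-EGFPhigh+ replicate pooled the ducts of 1 litter. The cell type tags contradict the titles for 3 of the 4 samples, Sox2-EGFPhigh+ replicate 2 and both Sox2-EGFP- samples. Replicate 1 of each population was sequenced in batch 1 and replicate 2 in batch 2, and the 2 populations were collected in parallel.

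Sox2 is a transcription factor of the HMG box family that defines the prosensory domain, the strip of duct epithelium from which the hair cells and supporting cells of the organ of Corti arise. At this age the sensory precursors have left the cell cycle over much of the duct and hair cells are beginning to differentiate. EGFP- cells of such a preparation can include nonsensory epithelium of the duct and any mesenchymal, vascular or blood cells that remain, and Sox2-EGFP also marks the glia of the spiral ganglion. In a bulk sample, fewer cells of a type and a weaker signal per cell cannot be told apart.

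The peaks of the 4 lists were merged into 70550 regions (mm9, gaps of up to 100 bp bridged, chromosome M left out). A region was called in a population when both of its samples held a peak there and neither sample of the other population did. The lists differ in length, with 39310 and 65866 peaks in Sox2-EGFPhigh+ replicates 1 and 2 and 23844 and 23895 in Sox2-EGFP- replicates 1 and 2, so each call was also made on the 23844 highest peaks of every list, ranked by the -log10 p of the peak caller with rank 1 the highest. The lists hold no read counts, so no model of counts could be fitted, and the read totals that the study lists per sample are not used here. With 2 samples a side, an exact permutation test cannot give a two-sided p below 0.333.

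The sequences around the summits of 6 called regions are shown as examples. They belong to the best-ranked region of each population and to 4 other regions among the 10 best of a population whose nearest gene or promoter is in one of the gene lists used here. The first 3 belong to regions called in Sox2-EGFPhigh+ cells and the last 3 to regions called in Sox2-EGFP- cells. Each is 201 bases of the mm9 plus strand, read 5′ to 3′, centred on the summit of the sample in which the peak ranked best. Capitals mark matches to any of the 26 short motifs that were counted.
Dip2b intron (chr15:99920123-99920323): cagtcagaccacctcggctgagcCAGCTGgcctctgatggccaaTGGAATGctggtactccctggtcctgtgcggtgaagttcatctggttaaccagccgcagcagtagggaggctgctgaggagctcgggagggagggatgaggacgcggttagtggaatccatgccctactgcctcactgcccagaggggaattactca
Cdh1 promoter (chr8:109127114-109127314): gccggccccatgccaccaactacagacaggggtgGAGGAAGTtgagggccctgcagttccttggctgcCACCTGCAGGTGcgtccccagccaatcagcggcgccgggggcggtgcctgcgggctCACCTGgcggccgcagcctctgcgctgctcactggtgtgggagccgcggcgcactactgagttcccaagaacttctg
Lmx1a, downstream (chr1:169808183-169808383): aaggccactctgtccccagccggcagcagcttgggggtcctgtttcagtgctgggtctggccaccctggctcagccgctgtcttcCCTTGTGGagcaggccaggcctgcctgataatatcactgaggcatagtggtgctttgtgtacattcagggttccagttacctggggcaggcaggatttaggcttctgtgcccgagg
Lsm5, downstream (chr6:56567028-56567228): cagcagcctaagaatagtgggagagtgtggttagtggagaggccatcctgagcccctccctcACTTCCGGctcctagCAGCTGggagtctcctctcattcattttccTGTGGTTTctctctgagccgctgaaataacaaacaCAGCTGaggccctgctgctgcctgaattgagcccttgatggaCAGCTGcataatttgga
Clec7a, upstream (chr6:129430180-129430380): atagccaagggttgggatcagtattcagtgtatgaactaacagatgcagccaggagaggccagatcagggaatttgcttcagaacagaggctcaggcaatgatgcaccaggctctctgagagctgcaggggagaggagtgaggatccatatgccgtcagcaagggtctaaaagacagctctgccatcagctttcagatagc
Nos2, upstream (chr11:78700673-78700873): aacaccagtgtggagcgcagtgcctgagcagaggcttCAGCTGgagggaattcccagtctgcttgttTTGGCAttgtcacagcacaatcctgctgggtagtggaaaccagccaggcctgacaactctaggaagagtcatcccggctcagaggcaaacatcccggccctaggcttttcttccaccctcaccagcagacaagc
The Cdh1 window, which spans the start of the E-cadherin gene, held 3 matches to the E-box CAGGTG, read as CACCTG on the other strand. The Lsm5 window held 3 matches to the other E-box counted, CAGCTG, with an Ets match before the first of them and a Runx match after it. The Clec7a window held none of the 26 motifs, which says only that those letters are not in it.

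Of the 70550 regions, 16456 (23.3%) held a peak in all 4 samples, 16570 were called in Sox2-EGFPhigh+ cells (23.5% of the regions tested) and 2767 in Sox2-EGFP- cells (3.92%). Another 27352 regions held a peak in Sox2-EGFPhigh+ replicate 2 alone, the sample with the longest list, against 2495 in Sox2-EGFPhigh+ replicate 1 alone and 638 and 632 in single Sox2-EGFP- samples. Regions held by just 1 sample of each population numbered 64 for the pair of batch 1, 246 for the pair of batch 2, and 28 and 221 for the pairs that cross batches. On equal-length lists the excess of Sox2-EGFPhigh+ calls was gone: 4286 regions were called in Sox2-EGFPhigh+ cells (12.1% of the 35513 regions tested) and 4784 in Sox2-EGFP- cells (13.5%). This order was not stable. With only the 10000 or the 5000 highest peaks, Sox2-EGFPhigh+ calls were again the more numerous, with 926 against 762 and 395 against 302. The same was so at the 23844 highest peaks when a sample had to cover 50% of a region (4879 against 3895). It was also so when each peak needed a -log10 q of at least 5 (2734 against 2602), but on lists shorter than 23844 peaks. Within batch 1 alone, 7555 regions were on the equal-length list of the Sox2-EGFPhigh+ sample only and 6680 on that of the Sox2-EGFP- sample only, and within batch 2 alone 9222 and 7464.

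**Figure D1:**
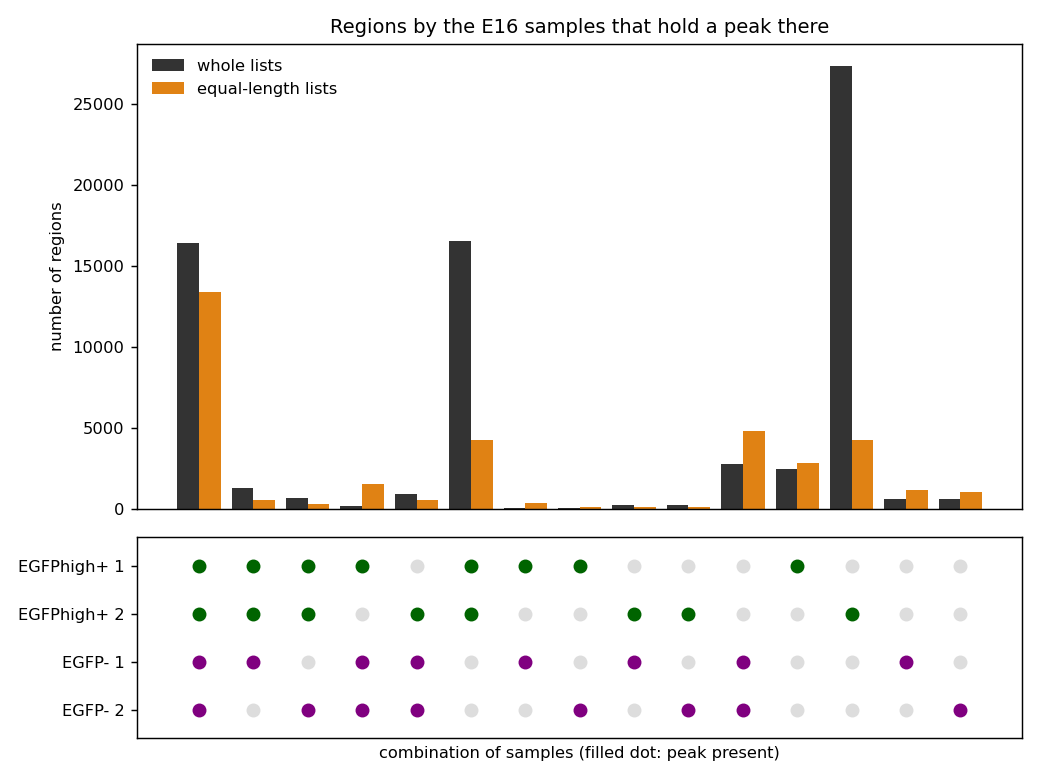
Bars give the number of regions (y axis) for each combination of the 4 E16 samples with a peak there (x axis, filled dots below), for whole lists (black) and equal-length lists (orange). The 27352 regions of Sox2-EGFPhigh+ replicate 2 alone shrink to 4236 on equal-length lists, and the bars of both populations' calls, 4286 and 4784, become alike.

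Of the 4784 equal-length calls in Sox2-EGFP- cells, 2028 (42.4%) had a Sox2-EGFPhigh+ peak further down the longer lists, and 2756 had none at all. None of the 4286 equal-length calls in Sox2-EGFPhigh+ cells had a Sox2-EGFP- peak left out by the shortening, which cut the list of Sox2-EGFP- replicate 2 from 23895 to 23844 peaks and left that of replicate 1 whole. Every E16 peak (100% in each list) had an overlapping partner in some other sample, of any age, from its own population, as the authors had filtered the lists for replicated peaks. Sox2-EGFPhigh+ peaks had 5 other samples in which to find a partner and Sox2-EGFP- peaks had 2, which bears on the length of the lists and on the replicate overlaps given here. Leaving out Sox2-EGFPhigh+ replicate 1 raised the whole-list Sox2-EGFPhigh+ calls to 43922 and the equal-length ones to 8522, and leaving out Sox2-EGFPhigh+ replicate 2 gave 19065 and 7149.

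Calls of both populations lay mostly outside promoters (from 1000 bp before a protein-coding start site to 100 bp after it). Promoters made up 69.3% of the regions with a peak in all 4 samples, but 8.71% of the Sox2-EGFPhigh+ calls and 2.75% of the Sox2-EGFP- calls. On equal-length lists the promoter shares of the calls were alike, at 9.50% and 9.90%. The median distance to the nearest start site was 22.6 kb for the Sox2-EGFPhigh+ calls, 43.3 kb for the Sox2-EGFP- calls and 0.177 kb for the shared regions. Introns held 42.2% of the Sox2-EGFPhigh+ calls and 41.4% of the Sox2-EGFP- calls, while 44.2% and 53.6% were intergenic. For equal-length calls the medians were 23.1 and 31.1 kb. The called regions were narrower than the shared ones (median 444 and 417 bp, against 839 bp).

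Promoters that were called differed in base composition from promoters open in all 4 samples. The observed over expected CpG ratio had a median of 0.766 in the 11392 shared promoter regions, 0.485 in the 1443 called in Sox2-EGFPhigh+ cells and 0.315 in the 76 called in Sox2-EGFP- cells. Their median G+C content was 63.6%, 59.1% and 55%. The 1443 regions covered promoters of 1407 genes and the 76 regions promoters of 76 genes. On equal-length lists 407 and 473 promoter regions were called, with median CpG ratios of 0.464 and 0.536.

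The called share of regions outside promoters rose from the top of each list down to rank 20000. Among the 1000 highest regions of each sample, of which 90.5% to 93.1% were promoters, at most 4 were called. At ranks 1001 to 5000 the called share outside promoters was 13.2% in Sox2-EGFPhigh+ replicate 1 and 31.6% in replicate 2, and 4.87% and 7.61% in Sox2-EGFP- replicates 1 and 2. At ranks 10001 to 20000 it reached 55.8%, 54.4%, 25.4% and 28.7%. From rank 1001 to rank 20000 both Sox2-EGFPhigh+ samples lay above both Sox2-EGFP- samples in each bin, but a Sox2-EGFP- peak had to be missing from much longer lists to be called.

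**Figure D2:**
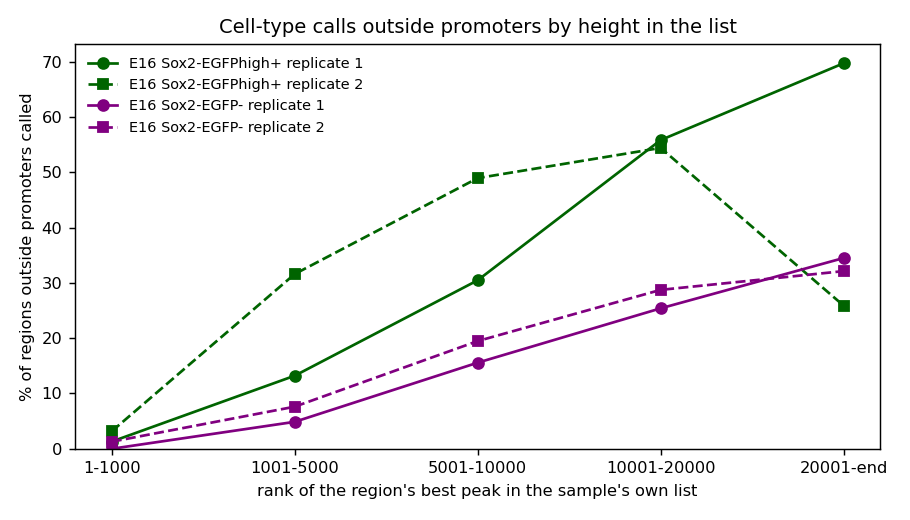
For each E16 sample, the y axis gives the percentage of its regions outside promoters that were called in its own population, by the rank of the region's best peak in that sample's list (x axis, 1 the highest). Both green lines (Sox2-EGFPhigh+) lie above both purple lines (Sox2-EGFP-) from rank 1001 to 20000, with 55.8% and 54.4% against 25.4% and 28.7% at ranks 10001 to 20000, and that of replicate 2 drops to 25.9% beyond.

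The best-ranked region called in Sox2-EGFPhigh+ cells lay in an intron of Dip2b, 51.1 kb from its start site (chr15:99919919-99920458), at rank 638 in replicate 1 (-log10 p 70.9) and rank 1278 in replicate 2 (47.1). It was followed by the promoter of Cnksr1, a scaffold of Ras signalling (chr4:133793662-133794635, ranks 1741 and 684), and by an intronic region near Dact3, a Wnt inhibitor (chr7:17454788-17455411, ranks 1807 and 691). The promoter of Cdh1, which encodes the epithelial adhesion molecule E-cadherin, was the fifth (chr8:109127019-109127855, ranks 2811 and 1344). An intergenic region 189 kb from the start of Lmx1a, a LIM-homeodomain factor of the early otic epithelium, stood at ranks 2693 and 1696 (chr1:169807913-169808824). Other regions of the 10 best were nearest to Pcdh1, Ttll10, Nck2 and Trpv4. All 10 had a peak in at least 3 of the 4 earlier Sox2-EGFPhigh+ samples.

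In Sox2-EGFP- cells the best-ranked called region was intergenic, 87.6 kb from the start of Lsm5 (chr6:56566639-56567536), at rank 2296 in replicate 1 (-log10 p 39.9) and rank 1388 in replicate 2 (28.7). The next regions were upstream of immune genes, Clec7a, the receptor dectin-1 of myeloid cells (chr6:129429921-129430933, ranks 2228 and 2587), and Nos2, inducible nitric oxide synthase (chr11:78700582-78701256, ranks 4396 and 718). The promoter of Acoxl, an acyl-CoA oxidase-like gene, came after them (chr2:127680195-127680767), at ranks 4254 and 1435. Regions nearest to Hs1bp3, Stxbp6, Rai14, Actn4, Dnm3 and Rbms1 completed the 10. The mean ranks of the 10 regions ran from 1842 to 4589, against 958 to 2255 for the 10 Sox2-EGFPhigh+ regions. All 10 overlapped a peak of the E14.5 Sox2-EGFP- sample. Clec7a and Nos2 are both in the list of macrophage genes given below. The regions of that list held 25 Sox2-EGFPhigh+ and 3 Sox2-EGFP- calls, and 4 and 5 on equal-length lists.

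Promoters called in Sox2-EGFPhigh+ cells included those of junction genes. After Cnksr1, Cdh1 and Ttll10 came F11r, the tight junction molecule JAM-A (chr1:173367332-173368077), at ranks 4444 and 1260. Aldoc, an aldolase (ranks 4733 and 1541), AI661453, Myo10, an unconventional myosin of filopodia, Slc44a3 and D630013G24Rik were also among the 10. The promoters called in Sox2-EGFP- cells were led by Acoxl, followed by Nfix, a nuclear factor I gene (chr8:87297776-87298126, ranks 6396 and 7163), and Emilin1, an extracellular matrix glycoprotein of elastic fibres (chr5:31215565-31216352, ranks 7905 and 9579). Below them stood the cytokine gene Il6, Arap1, Prkacb, Lgals9, and 2 genes expressed by stromal cells, Fap, fibroblast activation protein (ranks 12244 and 13172), and Islr (ranks 16749 and 8801).

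Each region was next assigned to the protein-coding gene with the nearest start site, which names a neighbour and not a target. Of 17096 genes with a region, 8299 (48.5%) were nearest to at least 1 Sox2-EGFPhigh+ call, 2102 (12.3%) to at least 1 Sox2-EGFP- call and 1574 to both. Zfp608 had the most Sox2-EGFPhigh+ calls (18 of 54 regions), followed by Auts2 (16 of 81) and Tcf7l2, the Wnt effector (16 of 41). Med13l had 15, Eya1, a transcriptional cofactor required for the inner ear, 13, and Nav2 13. Ank3, Camta1, Kirrel3 and Nedd4l had 12 each. Auts2 also led the Sox2-EGFP- side with 8 calls, then Arhgap26 and C130026L21Rik with 7 each and Runx1t1 with 6. Ets1, Gli2, a Hedgehog effector, Irx3, Trpm3 and Ubash3b had 5 each and A2ld1 had 4. Genes with many regions have more chances of a call, so gene lists were read as shares of their regions, with 23.5% and 3.92% over all genes in the 2 directions.

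Epithelial genes showed the highest share of Sox2-EGFPhigh+ calls of the 19 lists. Of the 99 regions nearest to 20 epithelial genes, 52 (52.5%) were called in Sox2-EGFPhigh+ cells and 1 (1.01%) in Sox2-EGFP- cells. A Sox2-EGFPhigh+ call lay nearest to 19 of the 20 genes, beside 48.5% of all genes. The promoters of 12 of the 20 were called, those of Cdh1, Grhl2, Esrp1, Esrp2, Krt8, Krt18, Cldn4, Cldn7, Rab25, Marveld3, Tjp3 and St14. Over all genes, 1407 of the 14149 with a promoter region had one called in Sox2-EGFPhigh+ cells. Grhl2, a transcription factor that maintains epithelial junctions, had 7 Sox2-EGFPhigh+ calls of 18 regions, with its promoter at ranks 6850 and 6914 and no Sox2-EGFP- peak. Esrp1 and Esrp2, splicing regulators of epithelial isoforms, had 3 and 2, and Marveld3, of tight junctions, had 5. The promoter of Epcam held a peak in all 4 samples, at ranks 7741 and 14086 in Sox2-EGFPhigh+ and 11501 and 11452 in Sox2-EGFP- replicates 1 and 2. On equal-length lists the epithelial counts were 24 against 1, beside 4285 against 4778 over all genes, and within batches 1 and 2 they were 34 against 5 and 32 against 8.

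Mesenchyme and endothelial genes lay on the other side. Of 183 regions nearest to 24 mesenchyme genes, 25 (13.7%) were called in Sox2-EGFP- cells and 35 (19.1%) in Sox2-EGFPhigh+ cells, which is above and below the shares over all genes. The promoters of Prrx1, a homeobox gene of mesenchyme (ranks 20485 and 22884), and Col3a1, a fibrillar collagen (18746 and 21325), held a peak in both Sox2-EGFP- samples and in neither Sox2-EGFPhigh+ sample. Tbx18 and Dcn had 3 Sox2-EGFP- calls each, as had Foxc1 and Zeb2, beside 1, 2, 8 and 4 Sox2-EGFPhigh+ calls. The promoter of Tbx15 was called in Sox2-EGFPhigh+ cells. The promoter of Twist1, a basic helix-loop-helix factor of mesenchyme, had a peak in all 4 samples, at ranks 21457 and 51876 in Sox2-EGFPhigh+ and 2833 and 5935 in Sox2-EGFP- replicates 1 and 2. Equal-length calls numbered 38 in Sox2-EGFP- and 13 in Sox2-EGFPhigh+ cells, and within batches 1 and 2 the counts were 50 against 18 and 52 against 25.

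Among 100 regions nearest to the 19 of 20 endothelial genes that had a region, 12 (12%) were called in Sox2-EGFP- cells and 18 (18%) in Sox2-EGFPhigh+ cells. Emcn, endomucin of vessel lining, had 3 Sox2-EGFP- calls and none in the other direction, its promoter included (ranks 18389 and 12481). Erg, an Ets factor of endothelium, had 3 and none, and Eng, endoglin, had 2 and none, with its promoter at ranks 16950 and 15268. Cdh5, VE-cadherin, had 7 Sox2-EGFPhigh+ calls against 2, all of them intergenic, and 1 promoter region of Esam was called in Sox2-EGFPhigh+ cells, beside another with a peak of Sox2-EGFP- replicate 1. On equal-length lists the endothelial counts were 19 against 1. Pecam1, Cdh5, Erg and Tie1 had no promoter peak in any of the 4 samples.

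**Figure D3:**
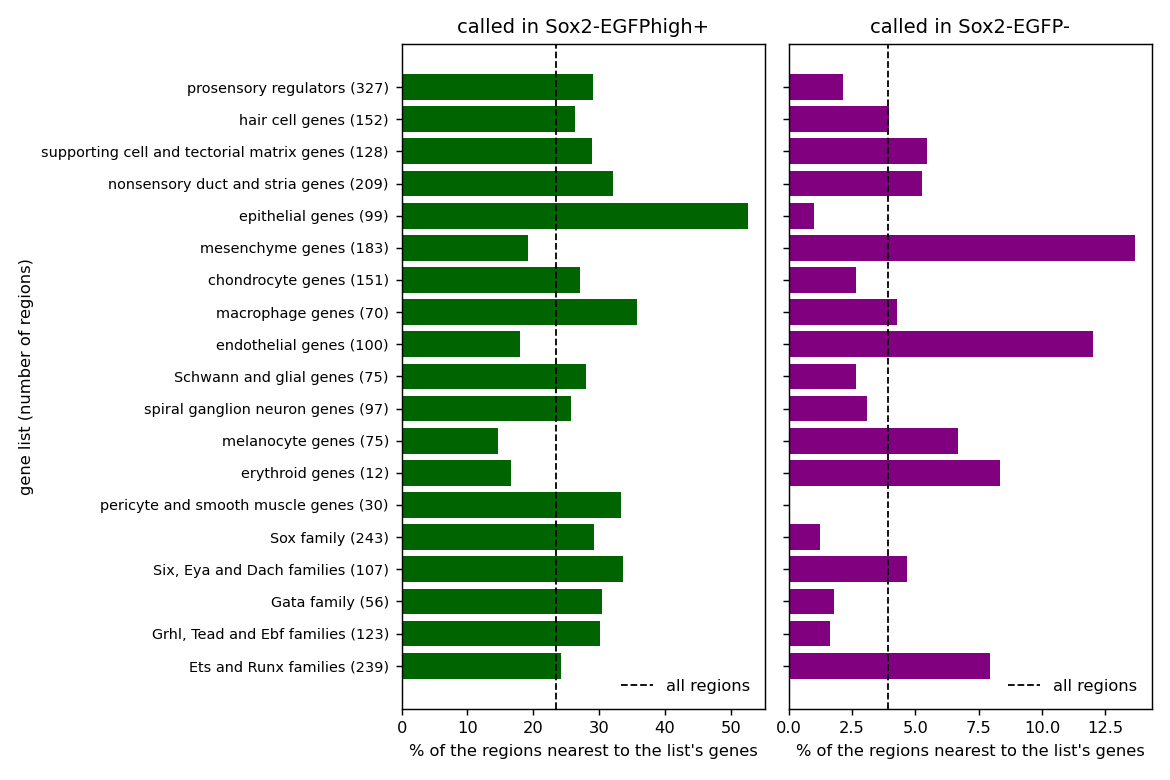
Bars give, for each of the 19 gene lists (y axis, with its number of regions), the percentage of its regions called in Sox2-EGFPhigh+ cells (left) and in Sox2-EGFP- cells (right), and the dashed lines give the share over all genes (23.5% and 3.92%). Epithelial genes stand at 52.5% on the left and 1.01% on the right, mesenchyme genes at 19.1% and 13.7%.

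All 24 prosensory regulators were nearest to at least 1 Sox2-EGFPhigh+ call, beside 48.5% of all genes, but they had 327 of the 70495 regions, many more per gene than all 17096 genes have. Of these 327 regions, 95 (29.1%) were called in Sox2-EGFPhigh+ cells and 7 (2.14%) in Sox2-EGFP- cells. Eya1 had 13 of 24, Sox2 12 of 38, Pax2, a paired-box factor of the otic placode, 9 of 19, and Sox9 8 of 33. Sox2, Pax2 and Sox9 had no Sox2-EGFP- call and Eya1 had 1. On equal-length lists Sox2 had 4 Sox2-EGFPhigh+ calls against 1, Eya1 5 against 2 and Sox9 3 against 1. Pax2 had 0 calls in either direction there. The promoter of Sox2 itself was open in all 4 samples, at ranks 6209 and 12895 in Sox2-EGFPhigh+ and 14986 and 18143 in Sox2-EGFP- replicates 1 and 2, so it was not called, although the populations were sorted on this locus. The 12 called regions around Sox2 were intergenic, at offsets of -206 kb to 504 kb from its start, where a minus sign means upstream. The best of them by rank in replicate 1 lay at -117 kb (chr3:34431360-34431901, ranks 4338 and 10613). Notch1, the receptor through which hair cells inhibit their neighbours, had 7 calls, led by a region at -2.52 kb from the nearest start site (chr2:26374389-26375016, ranks 3835 and 1443). The promoters of Pax2 and Hes5, a Notch target, were called, and so was a promoter region of Gata3, whose promoter also held peaks of both Sox2-EGFP- samples elsewhere. Equal-length counts were 37 against 15, and 52 against 24 and 57 against 23 within batches 1 and 2.

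Hair cell genes had 40 of 152 regions called in Sox2-EGFPhigh+ cells (26.3%) and 6 (3.95%) in Sox2-EGFP- cells, both near the shares over all genes. Their equal-length counts were 13 against 11. Promoters of Barhl1, a homeobox gene of hair cells (ranks 9263 and 7284), Myo7a, Dll3, Srrm4 and Ush1c were called in Sox2-EGFPhigh+ cells. A promoter region was called for Espn and Pcdh15 too, but both Sox2-EGFP- samples held a peak at another region of these promoters. Atoh1, which starts hair cell differentiation, had 4 Sox2-EGFPhigh+ and 2 Sox2-EGFP- calls, but 0 and 2 on equal-length lists. The Atoh1 promoter had a peak in all 4 samples (ranks 19816 and 39910, and 19123 and 19658). Pou4f3, Barhl1 and Pcdh15 had 4 Sox2-EGFPhigh+ calls each. Supporting cell and tectorial matrix genes had 37 of 128 regions called in Sox2-EGFPhigh+ cells (28.9%) and 7 (5.47%) in Sox2-EGFP- cells. For this list the equal-length counts were 14 against 13. Cdkn1c had 5 Sox2-EGFPhigh+ calls, Slc1a3 and Kremen1 had 4 each, and the promoters of Otog and Otogl, otogelin genes of the acellular membranes, were called.

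Nonsensory duct and stria genes had 67 of 209 regions called in Sox2-EGFPhigh+ cells (32.1%) and 11 (5.26%) in Sox2-EGFP- cells, both above the shares over all genes, but 10 against 15 on equal-length lists. Lmx1a had 10 calls against 1 and Fgfr2 7 against 4, Meis2 6 against 1 and Fgf9 5 against 1. The promoters of Gata2, Kcne1, Gsc, Wnt3 and Cldn8 were called in Sox2-EGFPhigh+ cells, as were 2 promoter regions of Fgf9, whose promoter also held peaks of both Sox2-EGFP- samples.

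The Sox family had 71 of 243 regions called in Sox2-EGFPhigh+ cells (29.2%) and 3 (1.23%) in Sox2-EGFP- cells. Sox2 had 12 calls, Sox4, Sox5 and Sox6 had 10 each, and the promoter of Sox10 was called. Promoter regions of Sox5 and Sox6 were called as well, but the Sox5 promoter also held a peak of 1 Sox2-EGFP- sample and the Sox6 promoter peaks of both. The families of Six2, Eya1 and Dach1 had 36 of 107 (33.6%) and 5 (4.67%), with 13 calls for Eya1, 5 for Six2 and 4 each for Eya2, Eya4 and Dach1. The Gata family had 17 of 56 (30.4%) and 1 (1.79%), with 6 calls for Gata6 and a promoter call for Gata2. The Grhl, Tead and Ebf families had 37 of 123 (30.1%) and 2 (1.63%), led by Tead1 and Ebf3 with 9 each, and the promoter of Grhl3 was called as well as that of Grhl2. The Ets and Runx families had 58 of 239 (24.3%) and 19 (7.95%), the former near and the latter above the share over all genes. Ets1 had 4 Sox2-EGFPhigh+ and 5 Sox2-EGFP- calls and Runx1 5 and 4, whereas Etv6 had 10 and none, and the promoter of Erf was called in Sox2-EGFPhigh+ cells.

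Markers of other cell types that a duct preparation could hold were measured the same way. Schwann and glial genes had 21 of 75 regions called in Sox2-EGFPhigh+ cells (28%) and 2 (2.67%) in Sox2-EGFP- cells, with the promoters of Sox10 (ranks 27082 and 53711) and Tfap2a called in Sox2-EGFPhigh+ cells, 5 calls for Mbp, and no promoter peak at Foxd3 or Cdh19. A promoter region of Egr2 was called in Sox2-EGFPhigh+ cells and one of Pmp22 in Sox2-EGFP- cells, but the Egr2 promoter held peaks of all 4 samples and the Pmp22 promoter also a peak of Sox2-EGFPhigh+ replicate 1. Spiral ganglion neuron genes had 25 of 97 (25.8%) and 3 (3.09%), with promoter calls for Neurog1, Neurod1 and Snap25 in Sox2-EGFPhigh+ cells, a promoter region called for Ntrk2, whose promoter held peaks of all 4 samples, and 6 calls for Ntrk2 and 4 for Stmn2. Macrophage genes had 25 of 70 (35.7%) and 3 (4.29%), but 4 against 5 on equal-length lists. Ly86 held 8 of the macrophage calls, the single promoter called was that of C1qc (ranks 27485 and 34110), and apart from C1qc and Irf8 no promoter of the 24 macrophage genes held a peak in any of the 4 samples. On equal-length lists Schwann and glial genes had 6 Sox2-EGFPhigh+ calls against 3, and spiral ganglion neuron genes 5 against 6. The part of glia, neurons or macrophages in the calls was not tested.

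Chondrocyte genes had 41 of 151 regions called in Sox2-EGFPhigh+ cells (27.2%) and 4 (2.65%) in Sox2-EGFP- cells, of which Sox5 and Sox6, both also in the Sox family, held 20. Melanocyte genes had 11 of 75 (14.7%) and 5 (6.67%), with 5 Sox2-EGFPhigh+ calls for Dct and 3 Sox2-EGFP- calls for Kit. Pericyte and smooth muscle genes had 10 of 30 (33.3%) and 0, with promoter calls for Rgs5 and Des, a promoter region called for Tagln, whose promoter held peaks of all 4 samples, and on equal-length lists 0 regions were called in Sox2-EGFPhigh+ and 3 in Sox2-EGFP- cells. Erythroid genes had 2 of 12 (16.7%) and 1 (8.33%). On equal-length lists chondrocyte genes had 13 Sox2-EGFPhigh+ calls against 7, melanocyte genes 3 against 6 and erythroid genes 0 against 1.

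Regions with a peak in all 4 samples were compared by height. Ranks were taken anew among these 16456 regions in each sample. Both Sox2-EGFPhigh+ samples ranked above both Sox2-EGFP- samples in 3242 regions (19.7%), and both Sox2-EGFP- samples ranked higher in 3544 (21.5%). Outside promoters the shares were 22.0% and 25.4% of 5044 regions, and at promoters 18.7% and 19.8%. Above within each pair of the same replicate number were 4736 and 5058 regions.

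The largest shift towards Sox2-EGFPhigh+ cells was at a region at -15.7 kb from the start of Myh9, a nonmuscle myosin (chr15:77687958-77688657), ranked 1577 and 569 in Sox2-EGFPhigh+ and 16266 and 13313 in Sox2-EGFP- replicates 1 and 2. The promoter of Isl2, a LIM-homeodomain gene, followed with 2059 and 481 against 13833 and 15732. Promoter and distal regions near Shisa7, Acaa2 and Zfp36l2 came next. In the other direction the largest shift was 214 kb from the start of Zswim6 (chr13:108466302-108467181), with 16400 and 15552 in Sox2-EGFPhigh+ and 1791 and 1843 in Sox2-EGFP- samples. An intronic region ranked 16388 and 16253 against 5980 and 1387. Its nearest start site, 126 kb away, was that of Foxc2, a forkhead factor of mesenchyme and lymphatic vessels. The regions nearest to Foxc2 held 5 Sox2-EGFPhigh+ calls and 1 Sox2-EGFP- call, and 3 and 4 on equal-length lists. Regions near Agpat9, Gm4861 and Eif4e3 completed the 5 shifts.

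**Figure D4:**
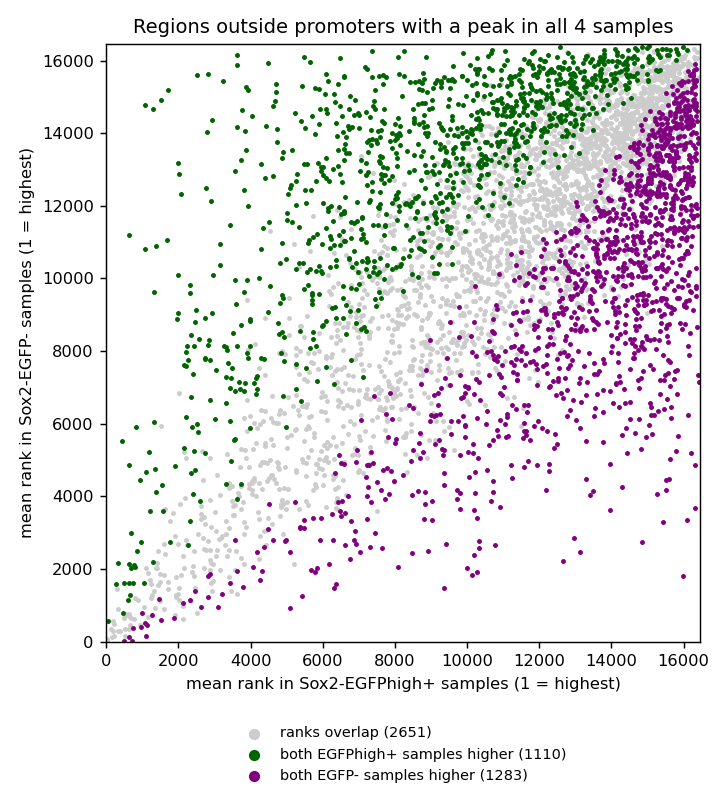
Each point is 1 of the 5044 regions outside promoters with a peak in all 4 E16 samples, by its mean rank in the Sox2-EGFPhigh+ samples (x axis) and in the Sox2-EGFP- samples (y axis), 1 the highest. The 1110 green points ranked higher in both Sox2-EGFPhigh+ samples and the 1283 purple points in both Sox2-EGFP- samples, and both groups reach far from the diagonal.

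Replicates shared more of their equal-length peaks than the populations did. The 2 Sox2-EGFP- samples shared 90.6% of them and the 2 Sox2-EGFPhigh+ samples 78.8%, while the 4 pairs across populations shared 63.5% to 68.9%. The mean within minus between was 18.7 percentage points, the largest difference that the 3 ways of pairing the samples allow (two-sided exact permutation p = 0.333, the smallest possible). For peaks outside promoters the within-population shares were 84.1% and 65.0% and those across 37.2% to 43.3%, a difference of 34.7 points. At the 5000 highest peaks the difference was 2.87 points (two-sided exact permutation p = 0.667). Another pairing of the samples gave a difference at least as large in size but negative, with less shared within than between.

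The order of heights in shared regions was compared for each pair of samples. Over all 16456 shared regions the rank correlation was 0.842 between the Sox2-EGFPhigh+ replicates and 0.783 between the Sox2-EGFP- replicates, but 0.812 between the Sox2-EGFPhigh+ and Sox2-EGFP- samples of batch 1, above that of the Sox2-EGFP- replicates. The pair across populations of batch 2 gave 0.705, the lowest of the 6 pairs, and those across batches 0.714 and 0.731. Over the 5044 shared regions outside promoters the samples grouped by population, with 0.749 and 0.601 within and 0.422 to 0.515 across, the latter highest for batch 1, while the batch 2 pair, at 0.432, lay between the pairs across batches. These correlations are across regions of the same genome, which are not replicates.

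Short sequence motifs around the summits differed in frequency between the populations. In each sample the 2000 highest peaks outside promoters were read 100 bp to each side of the summit, on both strands, for 26 motifs. Of these, 9 (34.6%) had higher shares in both Sox2-EGFPhigh+ samples than in either Sox2-EGFP- sample, and 7 (26.9%) had lower ones, each with a two-sided exact permutation p of 0.333 (0.542 adjusted over the 26 by Benjamini-Hochberg). The mean G+C content of the windows was 61.2% and 58.0% in Sox2-EGFPhigh+ and 61.2% and 59.6% in Sox2-EGFP- replicates 1 and 2.

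The widest gap was for the E-box CAGGTG, a sequence bound by Zeb and Snail repressors and by other E-box factors. It was present in 18.3% and 21.2% of the Sox2-EGFPhigh+ windows and in 7.25% and 8.8% of the Sox2-EGFP- windows, so that it was more frequent in the Sox2-EGFPhigh+ sample of either batch. Among all called regions outside promoters, 24.7% of 15122 in Sox2-EGFPhigh+ cells and 5.69% of 2689 in Sox2-EGFP- cells held it, beside 20.2% of all 55709 regions outside promoters and 13.6% of those shared by the 4 samples. At promoters 30.3% and 5.26% of the called regions held it, and on equal-length lists 42.5% of the regions called in Sox2-EGFPhigh+ cells and 5.29% of those called in Sox2-EGFP- cells held CAGGTG, against 12.2% of the shared promoter regions. The Cdh1 promoter window printed above is one of them.

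A second E-box, CAGCTG, which myogenic and neural basic helix-loop-helix factors bind, went the other way. It was found in 16.95% and 17.4% of the Sox2-EGFPhigh+ windows and in 19.8% and 20.45% of the Sox2-EGFP- windows. It stood in 17.1% of the called regions of Sox2-EGFPhigh+ cells outside promoters, in 24.7% of those of Sox2-EGFP- cells and in 17.3% of all.

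The Sox core CATTGTT was present in 4.9% and 6.85% of the Sox2-EGFPhigh+ windows and in 1.95% and 1.8% of the Sox2-EGFP- windows. Among called regions outside promoters the shares were 6.28% and 2.71%, beside 5.47% of all such regions and 2.76% of the shared ones, and on equal-length lists 8.72% and 2.67%. The longer Sox2 consensus of HOMER, which contains the core, was rarer (0.6% and 1.25% against 0.3% and 0.25%). The Grhl motif AACNNGTT, bound by grainyhead-like factors, stood at 3.3% and 3.15% against 1.5% and 1.85%. For the core motif of Six2-type homeoproteins, TCAGGTT, the shares were 3.35% and 4.4% against 2.2% and 2.9%, and for the Gata motif AGATAA 3.2% and 5.3% against 2.5% and 3.05%. Among called regions outside promoters AGATAA stood in 8.60% for Sox2-EGFPhigh+ and 7.03% for Sox2-EGFP- cells, both below the 9.69% of all such regions. CTCF, the insulator protein, is represented by CCACNAGG, with 7.05% and 6.75% against 5.7% and 5.25%. The Rfx letters GTTGCCATG stood at 1.6% and 1.4% against 1.0% and 0.65%. For the Irf letters AANNGAAAC the shares were 2.55% and 3.1% against 2.15% and 2.5%, so that the nearest samples of the 2 populations almost met.

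Motifs with higher shares in both Sox2-EGFP- samples, apart from CAGCTG, were the NF1 half-site TTGGCA (11.8% and 13.85%, against 10.35% and 11.35%), the Lef and Tcf motif CTTTGAT (3.05% and 2.7%, against 2.05% in each), the Pou motif ATGCAAAT (1.7% and 2.2%, against 1.15% and 1.1%), the PU.1 motif GAGGAAGT, the Runx motif TGTGGTTT and the cyclic AMP element TGACGTCA. For TGACGTCA, at 1.65% and 1.9% against 1.6% in each, the nearest samples almost met. In the called regions outside promoters TTGGCA was present in 20.7% for Sox2-EGFP- and 13.5% for Sox2-EGFPhigh+ cells, beside 13.8% of all. The Forkhead letters TGTTTAC did not separate the samples but stood in 5.58% of the Sox2-EGFP- and 2.63% of the Sox2-EGFPhigh+ calls, beside 2.81% of all. Tead letters CATTCCA were present in 6.58% and 4.66% of these calls, beside 4.73% of all, and the AP-1 letters TGANTCA in 8.96% and 7.04%, beside 6.59%. The Ets, Homeobox, Mef2, Nrf1 and E2f letters overlapped between the samples of the 2 populations, as did the Six2 and Ebf consensus sequences, the latter found in none of the 4 sets of windows. A match is a string of letters and no evidence that a factor was bound.

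**Figure D5:**
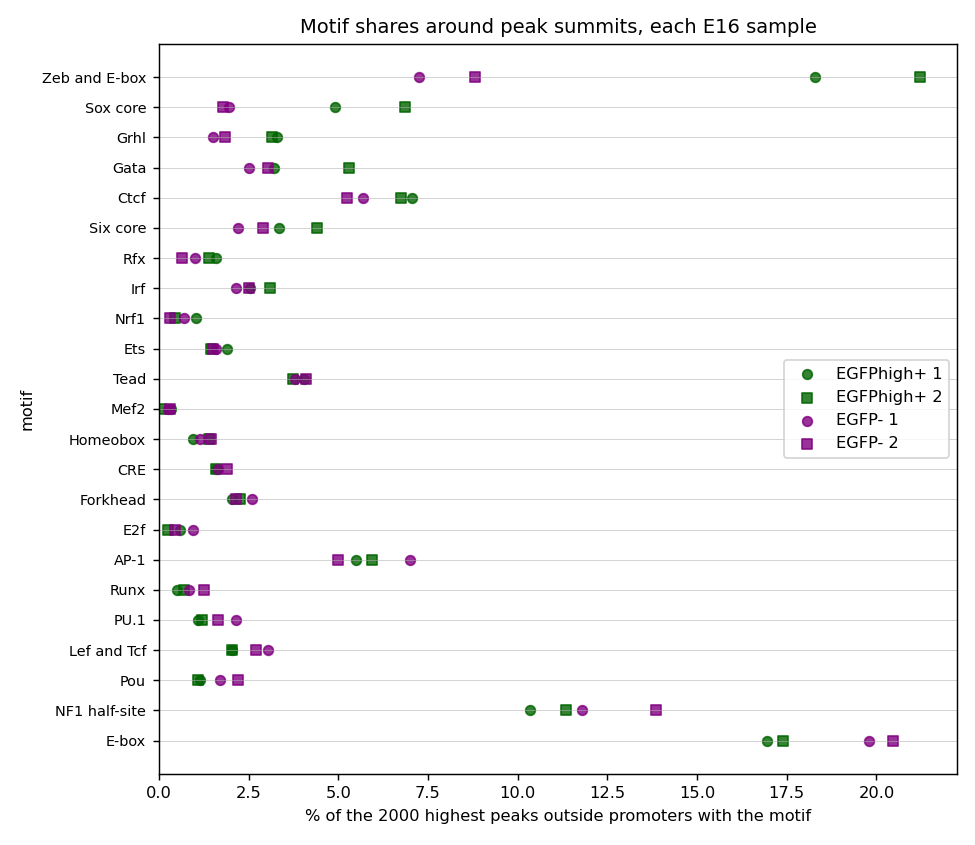
Points give, for 23 motifs (y axis), the percentage of the 2000 highest peaks outside promoters with the motif within 100 bp of the summit (x axis), in Sox2-EGFPhigh+ (green) and Sox2-EGFP- samples (purple). Circles stand for replicate 1 and squares for replicate 2. CAGGTG, named Zeb and E-box, stands at 18.3% and 21.2% against 7.25% and 8.8%, and CAGCTG, named E-box, lies in the opposite order.

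The earlier stages give a partly separate view, since peaks of one stage helped to retain those of another. Regions called in Sox2-EGFPhigh+ cells on equal-length lists held a peak of E14.5 Sox2-EGFPhigh+ replicate 1 in 100% of cases and of replicate 2, whose list is shorter, in 62.8%, beside 94.0% and 29.2% of all regions. On equal-length E14.5 lists the first share was 83.2%, beside 33.3% of all regions. In the 2 E12 samples, whose lists hold 13808 and 7567 peaks, 32.3% and 15.2% of these calls had a peak, beside 17.5% and 10.1% of all regions. Of the regions shared by the 4 E16 samples, which are mostly promoters, 56.8% and 35.9% had one. Outside promoters the E12 shares were close, at 32.1% and 15.1% of the calls and 32.4% and 17.5% of the shared regions. Of the 2767 regions called in Sox2-EGFP- cells, 59.9% had a peak in the E14.5 Sox2-EGFP- sample, beside 30.7% of all regions. Peaks of the E14.5 Sox2-EGFPhigh+ samples covered 1.52% and 0.578% of these 2767 regions and those of the E12 samples 0.108% and 0.0361%. These low shares are partly built in. Earlier Sox2-EGFPhigh+ peaks were kept only with a partner in another Sox2-EGFPhigh+ sample, and by the call these regions had none at E16. By the way the lists were filtered, every peak of the E14.5 Sox2-EGFP- sample overlaps an E16 Sox2-EGFP- peak, so its absence from the Sox2-EGFPhigh+ calls is built in.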

How the data were processed

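ATAC-seq peak lists of 4 E16 samples were analysed, with the other 5 lists of the series used for the last comparison. Upstream, the authors used Trim Galore and Bowtie2 (mm9) for trimming and alignment, Picard and SAMtools to discard duplicates and mitochondrial reads, and MACS2 to call peaks in each sample, and they dropped unreplicated and blacklisted peaks. Versions are not given in the sources used here. Each deposited list gives fold enrichment over background as a ratio, -log10 p and -log10 q values, an integer score derived from the -log10 q, and the summit. Here peaks were merged at 100 bp (checked against bedtools 2.31.1), called by presence in both samples of one type and neither of the other, and ranked by -log10 p. Promoters and nearest genes came from 51723 protein-coding transcripts of GENCODE vM1 (mm9). Scripts ran in Python 3.11.15 with numpy 2.4.6 and scipy 1.17.1 and were tested on simulated lists. Replicate numbers pair the samples by sequencing batch, which the study lists per sample, and the 2 types were collected in parallel. The consensus sequences of Sox2, Six2 and Ebf were read from a supplementary motif table of the study.

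Genes and regions were named by rule: on each side the 10 best mean ranks among equal-length calls without a peak in the other type, the 10 best promoter calls, the 10 genes nearest to the most calls, the 5 largest rank shifts, and of each list up to 4 members with the most calls and those with a called promoter. Others (Epcam, Twist1, Foxc2, Grhl2 details, absent promoters) were named after their values were seen. The comparison, lists and motifs were chosen with earlier results of these data known. Of 336 list entries, Gfi1, Ahsp and Sox1 had no protein-coding transcript under that symbol and are not analysed here, some named items are not reported here, and Spi1, Tfap2a and Snorc were matched through older symbols. Some genes are in more than 1 list. Litters are stated for the Sox2-EGFPhigh+ replicates only, so the spread between Sox2-EGFP- samples may be technical.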

Additional observations from a re-analysis of the deposited data

How the results depend on the processing

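Merging at 0 bp, a 50% coverage minimum, autosomes alone and absence judged on replicated peaks kept each count of calls within 1.5 times, but 50% coverage turned the order of the equal-length calls (4879 in Sox2-EGFPhigh+ against 3895 in Sox2-EGFP- cells), and ranking by fold enrichment did so for equal-length calls and rank shifts. A -log10 q of at least 5 gave 1597 Sox2-EGFP- calls and 2734 and 2602 equal-length calls in Sox2-EGFPhigh+ and Sox2-EGFP- cells. Shorter lists gave 926 and 762 (10000 peaks) and 395 and 302 (5000 peaks), and absence from whole lists gave 2756 Sox2-EGFP- calls. Batch 1 alone gave 4555 Sox2-EGFP- calls, 7555 equal-length Sox2-EGFPhigh+ calls, and 8848 and 9135 rank shifts; batch 2 alone gave 45446 Sox2-EGFPhigh+ calls, 9222 and 7464 equal-length calls, and 8958 and 9343 rank shifts. Outside promoters 1110 and 1283 regions shifted in rank, out of fewer regions. With 1 sample left out, which relaxes the call, the ranges were 17245 to 43922 and 2941 to 3696 for calls, 4579 to 8522 and 5354 to 6300 for equal-length calls, 5460 to 6282 and 5501 to 6663 for rank shifts, and 12.6 to 27.1 points for pair sharing. The replicate block, a call within each same-numbered pair, left the calls at 16570, 2767, 4286 and 4784 by construction, gave 4736 and 5058 rank shifts, and 18.5 points of pair sharing, so it changed no call. Shares separated 16 motifs, 17 for 5000 peaks and 15 for windows of 200 bp to each side, and no motif named as separated changed sign. Within a batch the sign of such a motif is fixed by the separation itself. The larger sets and windows contain the main ones. All 36 named called regions stayed called under the 4 alternatives tried on them. All lie on autosomes, so the autosome setting could remove none. They were picked for their ranks by -log10 p, which makes loss at the -log10 q minimum unlikely. Counts of calls per gene list, all genes included, were less stable: 146 of 200 moved by over 1.5 times within a batch or on equal-length lists, and 54 did not. The lists carry no read counts, and list length limits what absence means.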

Other observations

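The motif shares of the other 5 samples, which entered no comparison, were counted in the same windows. CAGGTG was present in 20.15% and 19.35% of the E12, 21.6% and 20.75% of the E14.5 Sox2-EGFPhigh+ windows and in 8.15% of those of the E14.5 Sox2-EGFP- sample. The Sox core CATTGTT stood at 6.35%, 5.3%, 9.55% and 6.15% in the Sox2-EGFPhigh+ samples and at 2.5% in the Sox2-EGFP- sample. The NF1 half-site TTGGCA stood at 8.55% and 8.6% at E12, at 10.75% and 11.3% in the E14.5 Sox2-EGFPhigh+ samples and at 12.8% in the E14.5 Sox2-EGFP- sample. For the Grhl motif AACNNGTT the second E12 sample, at 1.6%, lay below the Sox2-EGFP- sample, at 1.75%, while the other Sox2-EGFPhigh+ samples stood at 3.15% to 3.55%. The E16 order was turned for the CTCF motif CCACNAGG. It stood at 5.45% and 4.5% at E12, 5.9% and 5.6% in the E14.5 Sox2-EGFPhigh+ samples and 6.15% in the Sox2-EGFP- sample. The Irf letters AANNGAAAC stood at 2.4% and 2.5% at E12, 3.25% and 2.75% in the E14.5 Sox2-EGFPhigh+ samples and 2.6% in the Sox2-EGFP- sample.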
